A study of Caenorhabditis elegans with 16 samples.

Results

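Control worms sampled at 20 hr were compared with control worms sampled at 0 hr, with 3 libraries in each group. They are 6 of the 16 libraries of a study of aversive learning in Caenorhabditis elegans, and no RNAi library was used. All 6 came from whole wild-type worms of the strain N2 on the bacterial strain HT115, which is made for feeding double-stranded RNA to worms, with the empty vector L4440. Both groups therefore share the bacteria, the vector and the absence of any targeted gene, and the labels set them apart by time alone. The labels give neither the age of the worms nor the event from which the hours were counted. The study stated an interest in the forming and recalling of memory, without saying which time stands for which. Of the 46904 genes in the deposited tables, 12308 averaged 1 TPM or more across these 6 libraries and were compared. TPM is each gene's length-corrected share of the transcripts of its library, scaled to a fixed total.

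An adult C. elegans hermaphrodite makes a limited store of sperm first and oocytes for the rest of its fertile life. Its intestine makes yolk proteins that the oocytes take up, and its oocytes and early embryos carry large stores of maternal RNA. The cuticle is built from many collagens, each of which has its own time of expression around a molt. Germ line and embryos can hold a large part of the RNA of a whole adult. In RNA of whole animals, fewer cells of a type and less RNA per cell cannot be told apart, and a share can fall because other transcripts rose.

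Expression differed widely between the groups. Testing with limma on log2(TPM + 1), with Benjamini-Hochberg adjustment over all 12308 genes at 0.05, called 4598 genes higher (37.4%) and 4422 genes lower (35.9%) at 20 hr. The other 3288 genes passed in neither direction. Sizes were uneven. At least 2-fold changes on this scale were called for 242 genes in the rising direction and 2642 in the falling direction, and at least 8-fold changes for 2 and 269. Against a minimum of 2-fold, 26 genes rose (0.211%) and 1157 fell (9.4%). The median log2 change was 0.60 among genes called higher, -1.16 among genes called lower and 0.07 over all tested genes. Genes called higher made up 49.0 to 51.6% of all TPM in the 20 hr libraries and 29.4 to 36.7% in the 0 hr libraries. Genes called lower made up 11.4 to 11.7% at 20 hr and 25.3 to 32.6% at 0 hr. Because of the pseudocount of 1, changes of genes near 0 TPM come out too small. When all libraries were shifted to the same median, every change moved up by 0.21 and 60.1% of the calls were rises, against 51% as deposited. After quantile normalization that share was 62.8%.

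**Figure D1:**
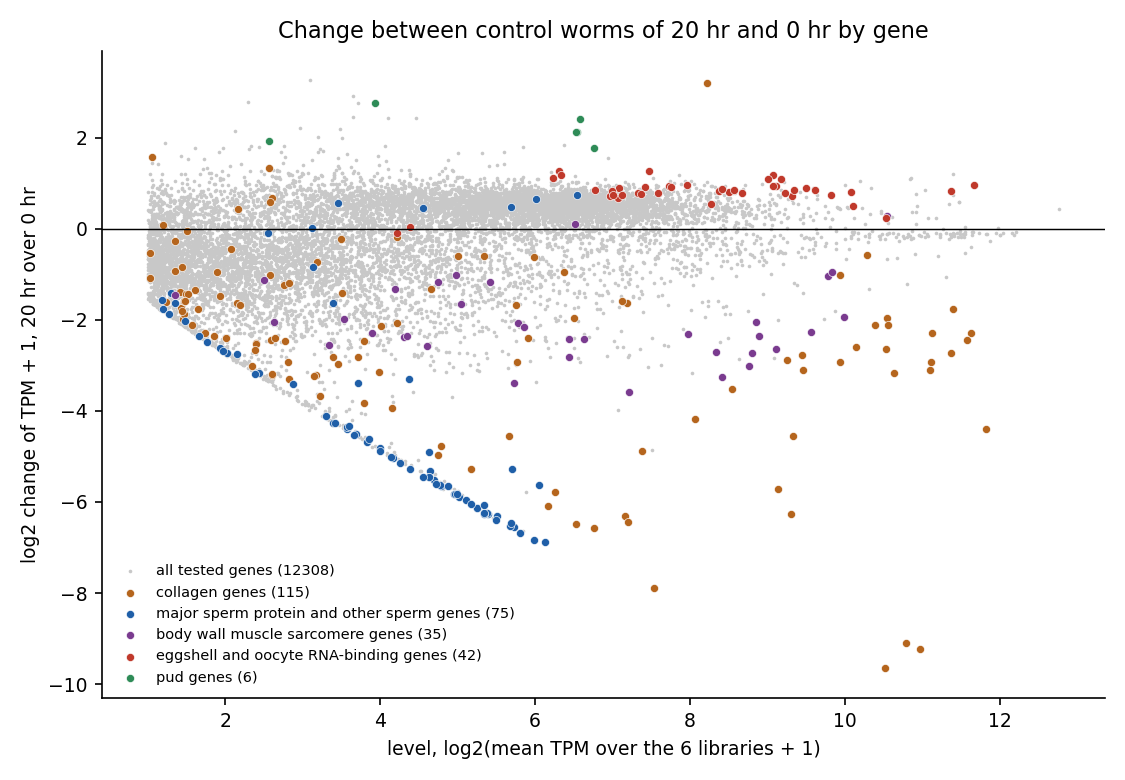
Each point is a tested gene, with its level on the horizontal axis (log2 of the mean TPM of the 6 libraries plus 1) and its log2 change of TPM + 1, 20 hr over 0 hr, on the vertical axis. Sperm genes lie along the lower left edge because they were near 0 TPM at 20 hr, collagens reach a log2 change of -9.65, and eggshell and oocyte genes form a band between -0.10 and 1.27.

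The libraries of a group were not equally alike. Across genes on the log2 scale, the 20 hr libraries correlated at 0.9877 to 0.994 with each other, the 0 hr libraries at 0.9677 to 0.9898, and the groups with one another at 0.8515 to 0.9355. The first principal component held 90.5% of the variance and placed the 20 hr libraries at 61.7, 63.0 and 65.2, and the 0 hr libraries 1, 2 and 3 at -38.5, -64.4 and -87.0. In 84.6% of the called genes, 0 hr replicate 1 was the 0 hr library nearest to the 20 hr mean. Among the 20 hr libraries, replicate 1 lay more than 2-fold below both others in 23 of the 278 genes that averaged 500 TPM or more, all 6 yolk protein genes included. The 0 hr and 20 hr values come from separately made tables with the same gene set, each library scaled on its own to the same total, so a difference between tables and a difference between times cannot be told apart. TPM keep no read totals and sequencing depth is therefore not known. Between 10619 and 10989 genes lay above 1 TPM at 20 hr, and between 12426 and 13205 at 0 hr. Whether the replicates are separate cultures is not stated in the labels, and the p-values cover no more than the spread among these 6 libraries, which may be technical. The markers expected of whole adult hermaphrodites (yolk, oocyte, muscle, intestine and neuron genes) were present in all 6 libraries.

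Transcripts of major sperm proteins were nearly gone at 20 hr, and other sperm genes were lower. Major sperm proteins are the small proteins that drive the crawling of nematode sperm, and 30 of their 35 genes passed the level filter. All 30 fell, with a median log2 change of -5.81. These genes passed the level filter through their 0 hr values, so a fall of every tested member was nearly fixed by the filter. Their summed level was 3.18, 2.11 and 1.77 TPM in the 20 hr libraries, against 1119, 1886 and 2726 TPM in the 0 hr libraries, so the groups did not come near each other. The gene msp-59 (WBGene00003452, chromosome IV, 5312693 to 5313149, minus strand, WBcel235) had 0.0479, 0 and 0.0847 TPM at 20 hr, against 73.8, 122 and 179 TPM at 0 hr (log2 change -6.83, SE 0.28, limma adjusted p = 1.34e-06). For msp-51 the 20 hr values were 0, 0.0579 and 0.0173 TPM, against 66.5, 106 and 159 TPM (-6.68). The msp genes are near copies of one another, so the level of any single one is uncertain, while a split of reads among them would not change their sum.

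Of 45 tested genes in the list of other sperm genes, 38 fell and 5 rose, with a median of -3.38. Their median level was 11.7 TPM, where 47.1% of all tested genes of 5 to 20 TPM fell. Their summed level was 345, 317 and 299.6 TPM at 20 hr, against 966, 1368 and 1892 TPM at 0 hr, so a larger part of it was kept than of the msp sum. This sum includes the 5 genes that rose, and so does not show how much was kept of the 38 that fell. The sperm-specific family gene ssq-4 had 0.0775, 0.124 and 0.131 TPM at 20 hr, against 85.3, 128 and 200 TPM at 0 hr (-6.88, SE 0.27, limma adjusted p = 1.34e-06). The gene sss-1, also of the sperm lists, was listed at 0 in all 3 libraries of 20 hr and at 40.7, 65.9 and 104 TPM at 0 hr, and nspd-2 was listed at 0 at 20 hr against 56.1, 72.1 and 108 TPM at 0 hr. Transcripts of gsp-3 (-4.62) and gsp-4 (-4.81), protein phosphatases of sperm, and of spe-11 (-4.36), a sperm-supplied factor of the embryo, fell too. So did cyc-2.2, a gene for a form of cytochrome c, with 0, 0.0895 and 0 TPM at 20 hr against 13.8, 19.1 and 26.2 TPM at 0 hr. The Argonautes alg-3 (-2.68) and alg-4 (-2.74), which bind small RNAs in the male germ line, had at most 0.0193 TPM in any 20 hr library, against 3.25 to 9.57 TPM at 0 hr. Genes near 0 TPM at 20 hr, such as sss-1, nspd-2, ssq-4, cyc-2.2, alg-3 and alg-4, passed the level filter through the 0 hr group alone. For such genes a fall was the only direction open.

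The 5 sperm-list genes that rose were spe-39 (0.73), cpb-1 (0.66), spe-5 (0.56), spe-48 (0.47) and spe-44 (0.46), all with groups that did not overlap. SPE-39 works in vesicle traffic in many tissues, SPE-5 is a subunit of the vacuolar proton pump, CPB-1 is an RNA-binding regulator of translation and SPE-44 is a transcription factor of early spermatogenesis. Genes that set sexual fate rose in 8 of 12 cases with a median of 0.60, and none fell. Their median level was 24.1 TPM. Of all tested genes between 20 and 100 TPM, 60% rose and 17.1% fell, with a median of 0.45. Among the rises were fog-2 (0.62) and fog-1 (0.59), which direct germ cells toward sperm. The calls of spe-44 and fog-1 were lost without replicate 2 of either group, at changes of 0.46 and 0.45 for spe-44 and of 0.53 and 0.55 for fog-1.

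Oocyte and eggshell transcripts were moderately higher at 20 hr. In the list of eggshell and egg activation genes, 13 of 15 rose and none fell, with a median of 0.89. The median level of the list was 309 TPM. Of all tested genes over 100 TPM, 58.2% rose and 16.2% fell, with a median of 0.40. CPG-2 is a chondroitin proteoglycan of the eggshell, and its gene cpg-2 (WBGene00015102, chromosome III, 7102086 to 7103990, minus strand) had 3402, 3469 and 3297 TPM at 20 hr, against 2230, 1990 and 1555 TPM at 0 hr (0.83, SE 0.13, limma adjusted p = 0.00085). All 20 hr libraries lay above all 0 hr libraries. The largest rise of the list was that of cbd-1 (1.18), which codes for a chitin-binding protein of the vitelline layer, with 465, 865 and 937 TPM against 361, 296 and 303 TPM. The fusion-related surface protein gene egg-1 (0.94), the chitin synthase gene chs-1 (0.93), cpg-3 (0.89), egg-3 (0.89) and the kinase gene mbk-2 (0.55) rose as well. Those that did not pass were perm-4 (0.49, limma adjusted p = 0.0625) and perm-2 (0.23, limma adjusted p = 0.132), which are named for the permeability of the eggshell. Both passed without 0 hr replicate 1, at 0.58 and 0.35, and perm-4 also without 20 hr replicate 1, at 0.77.

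Genes for RNA-binding proteins of oocytes rose in 23 of 27 cases with a median of 0.83, and none fell. Their median level was 332 TPM, where 58.2% of all tested genes over 100 TPM rose, with a median of 0.40. Most abundant was cey-2 (WBGene00000473, chromosome I, 5619569 to 5620668, plus strand), a cold-shock-domain protein gene of the germ line, with 4800, 4045 and 3982 TPM at 20 hr against 2541, 2223 and 1893 TPM at 0 hr (0.95, SE 0.13, limma adjusted p = 0.00036). The zinc-finger protein genes oma-1 (0.83) and oma-2 (0.85), needed for oocyte maturation, the embryonic fate genes pos-1 (0.84), pie-1 (0.74) and mex-3 (0.78), and the translational regulator gld-3 (0.97) rose with groups that did not overlap. In a second pattern the higher level was that of replicates 2 and 3 of 20 hr. The oocyte regulator lin-41 (1.27) had 53.7, 142 and 146 TPM at 20 hr, against 50.6, 36.5 and 41.2 TPM at 0 hr. The polarity gene mex-5 (1.08) had 265, 947 and 989 TPM, against 300, 258 and 337 TPM, and gld-1, a repressor of translation, had 355, 1059 and 1074 TPM, against 469, 395 and 490 TPM, without passing the test (limma adjusted p = 0.107). Without 20 hr replicate 1, the change of mex-5 was 1.70, gld-1 passed at 1.24 and 25 of the 27 genes rose. Without any 1 of the other 5 libraries, mex-5 did not pass, with changes of 0.76 to 1.17.

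Yolk protein genes belonged to that second pattern. The 6 vitellogenin genes summed to 7253, 20964 and 24122 TPM at 20 hr, against 8375, 7022 and 10210 TPM at 0 hr, so 1 library of 20 hr lay among the 0 hr libraries and the others were far above them. The largest change was that of vit-5 (WBGene00006929, chromosome X, 3403471 to 3408603, plus strand), with 1426, 4701 and 5567 TPM against 1400, 1244 and 1785 TPM (1.19, SE 0.44, limma adjusted p = 0.0333). Calls were made for vit-5, vit-3 (1.11, limma adjusted p = 0.047) and vit-4 (1.09, limma adjusted p = 0.0495), and not for vit-2 (0.73), vit-6 (0.59) or vit-1 (0.48). The list count depended on single libraries. Without 20 hr replicate 1 all 6 genes rose, vit-5 by 1.81, vit-3 by 1.74 and vit-4 by 1.72 on the log2 scale, while without 20 hr replicate 2 or 3, or without 0 hr replicate 1 or 2, none passed, and without 0 hr replicate 3 a single gene did. Reads of vit-3, vit-4 and vit-5 may have been shared, since these genes are near copies. The yolk receptor gene rme-2 rose (0.95), with 430, 897 and 813 TPM at 20 hr against 385, 368 and 307 TPM at 0 hr.

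**Figure D2:**
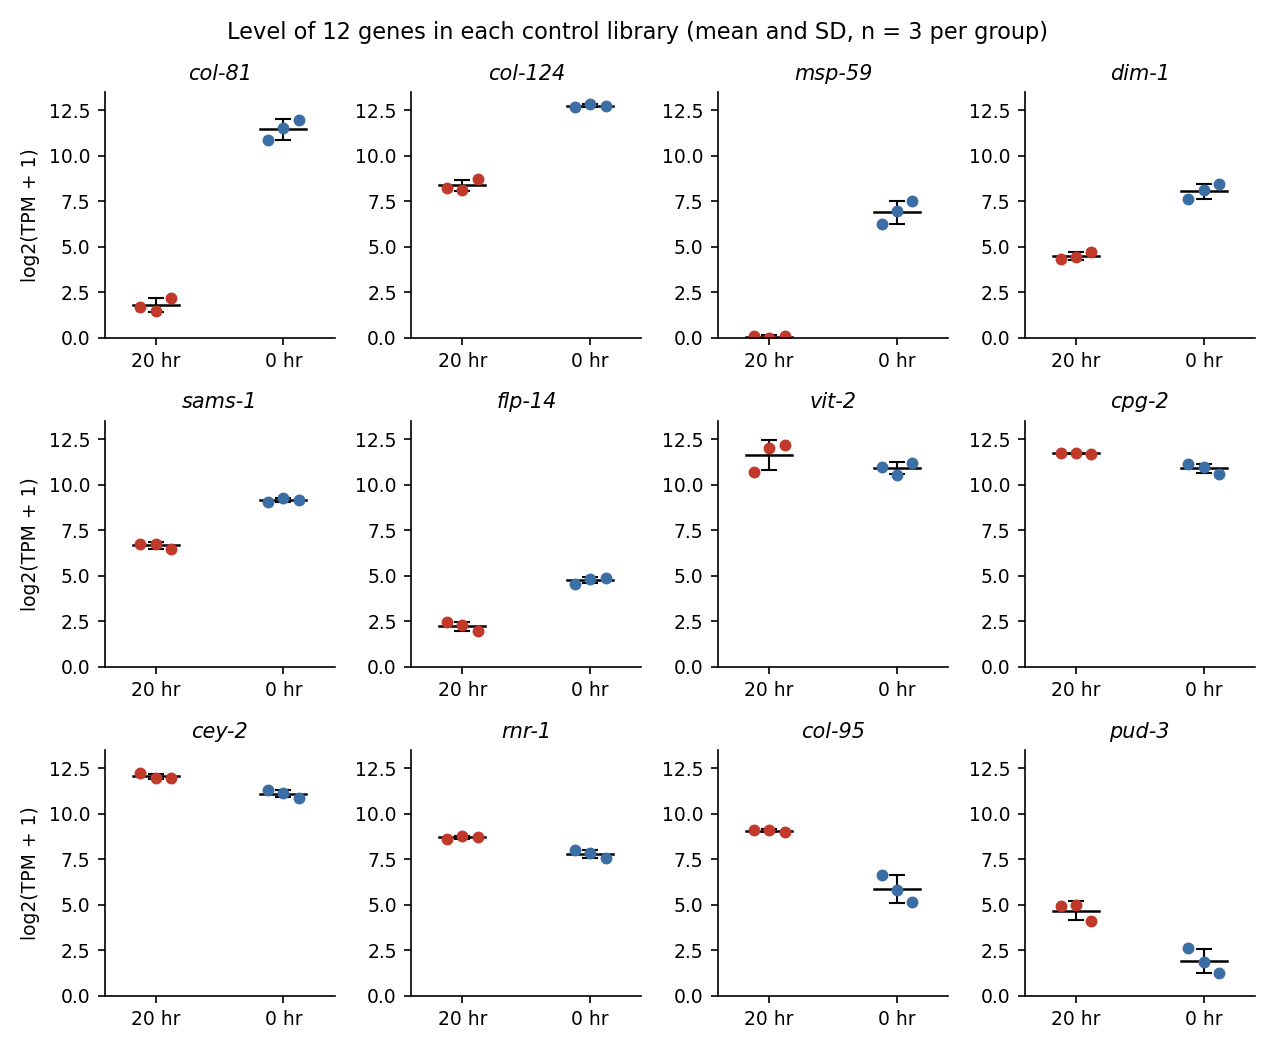
Level of 12 genes in each control library, as log2(TPM + 1), with 20 hr on the left and 0 hr on the right of each panel, a point for each library, and the group mean with its SD (n = 3). The 20 hr and 0 hr points of col-81 stand furthest apart, while vit-2 has 1 library of 20 hr, replicate 1 at 1660 TPM, within the 0 hr range.

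The dividing germ line and the cell cycle showed an even, small rise. All 31 genes of DNA replication rose with a median of 0.77, 25 of 27 mitotic cyclin and kinase genes with a median of 0.66, and 28 of 29 meiotic chromosome genes with a median of 0.66, and none of these 3 lists held a gene that fell. For comparison, the tested genes between 20 and 100 TPM had a median of 0.45 and those over 100 TPM a median of 0.40, and 60% and 58.2% of them rose. The ribonucleotide reductase gene rnr-1 (WBGene00004391, chromosome III, 9225374 to 9228786, minus strand), which supplies DNA building blocks, had 391, 436 and 416 TPM at 20 hr, against 254, 228 and 186 TPM at 0 hr (0.91, SE 0.13, limma adjusted p = 0.000468). The replicative helicase gene mcm-3 (0.88), the polymerase gene pole-1 (0.97), the phosphatase gene cdc-25.3 (0.87) and the kinase gene cdk-1 (0.69) moved in the same direction. In meiosis the recombinase gene rad-51 stood at 155, 139 and 129 TPM, against 87.4, 77.4 and 70.3 TPM (0.84). The break-promoting dsb-2 (0.81), the crossover gene msh-5 (0.78), the X-pairing gene him-8 (0.76) and the axis gene htp-3 (0.75) rose as well.

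Germ granules, the RNA-protein bodies of germ cells, had 10 of 14 genes higher and none lower, at a median level of 151 TPM. Of all tested genes over 100 TPM, 58.2% rose and 16.2% fell. The disordered-protein genes meg-4 (1.11) and meg-2 (1.05) led, whereas pgl-1 (0.25, limma adjusted p = 0.0651) and the helicase gene glh-1 (0.10, limma adjusted p = 0.512) did not pass. Genes of Argonaute and RNA interference pathways rose in 30 of 43 cases and fell in 3, with a median of 0.63. Their median level was 56.9 TPM. Of all tested genes between 20 and 100 TPM, 60% rose and 17.1% fell, with a median of 0.45. The transporter gene sid-1 had 79.1, 70.8 and 78.9 TPM at 20 hr, against 47.5, 41.4 and 37.3 TPM at 0 hr (0.85), and the Argonaute gene ergo-1 rose by 1.02 with 20 hr replicate 1 lowest of its group. Of the uterine secreted protein genes 4 of 5 rose, at a median level of 435 TPM. They were led by ule-1 with 410, 422 and 369 TPM, against 302, 224 and 137 TPM (0.93).

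Early embryonic genes were called in both directions, at shares near those of all tested genes. Of 66 genes in the list 19 were tested, 7 rose and 6 fell, where 37.4% of all tested genes rose and 35.9% fell. The median level of the list was 5.33 TPM. Of all tested genes between 5 and 20 TPM, 24.1% rose and 47.1% fell. Among the rises were sdz-6 (1.80), vet-1 (1.19) and vet-2 (1.14), genes first transcribed in the early embryo. Among the falls were hlh-1 (-1.41), the myogenic factor, and the posterior Hox gene nob-1 (-1.26), both of which also act after embryogenesis. The gene sdz-24 fell by 2.72 on the log2 scale. The call of vet-1 was lost without 20 hr replicate 1, at 0.86. Of 40 histone genes, 21 rose and 8 fell (14 without 0 hr replicate 1), with a median level of 5.18 TPM. Most histone transcripts lack a poly(A) tail, and how RNA was selected is not given in the sources used here, so these levels are uncertain.

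Cuticle collagens had the largest changes on the scale of log2(TPM + 1). Of 181 collagen genes 115 were tested, 92 fell and 5 rose, with a median of -2.30. The tested collagens had a median level of 12.8 TPM, where 47.1% of all tested genes of 5 to 20 TPM fell. Together the collagen genes held 11034, 12051 and 13856 TPM at 20 hr, against 69011, 81307 and 87992 TPM at 0 hr, and the sums did not overlap. At least 1000 TPM on average were reached by 2 collagens at 20 hr and by 26 at 0 hr. The gene col-81 (WBGene00000657, chromosome II, 11012397 to 11013820, minus strand) had the largest fall of all tested genes on the scale of log2(TPM + 1), with 2.26, 1.77 and 3.59 TPM at 20 hr against 1838, 2978 and 3951 TPM at 0 hr (-9.65, SE 0.28, limma adjusted p = 5.39e-07). At 20 hr it stood at 0.0869% of its 0 hr mean. With a pseudocount of 0.1 the fall of col-133 (-10.77) exceeded that of col-81 (-10.10). The genes col-129 (-9.23) and col-139 (-9.10) had the same course, with 4.06 to 7.19 and 3.66 to 7.69 TPM at 20 hr against 2801 to 5111 and 2311 to 4708 TPM at 0 hr.

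A second set of collagens varied within the 0 hr group. The gene col-133 had 0.0441, 0 and 0.0978 TPM at 20 hr, against 64.9, 327 and 715 TPM at 0 hr (-7.89, SE 0.69), col-13 had 2.44, 1.07 and 0.698 TPM against 59.0, 217 and 597 TPM (-6.43), and col-7 had 0.0314, 0.0532 and 0.218 TPM against 16.0, 145 and 387 TPM (-6.49, SE 0.91). In each of them 0 hr replicate 1 was the lowest of its group and replicate 3 the highest, and still no 20 hr library reached a 0 hr library. In 81 of the 92 collagens that fell, 0 hr replicate 1 was the lowest 0 hr library.

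Another set stayed abundant at 20 hr and was even within both groups. The adult marker col-19 had 317, 265 and 390 TPM at 20 hr, against 2889, 2891 and 2823 TPM at 0 hr (-3.16, SE 0.14, limma adjusted p = 1.62e-06). For col-124, the values were 300, 280 and 425 TPM against 6610, 7286 and 6893 TPM (-4.39), and for col-119 they were 1154, 1104 and 1406 TPM against 4437, 4297 and 3733 TPM (-1.77). The genes col-20 (-2.73), col-140 (-2.45), col-122 (-2.28) and col-8 (-1.95) lay between these.

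Against this trend, col-95 (WBGene00000670, chromosome III, 11703885 to 11705091, plus strand) rose with 557, 540 and 501 TPM at 20 hr, against 99.5, 55.7 and 34.3 TPM at 0 hr (3.19, SE 0.31, limma adjusted p = 6.12e-05). It was 1 of 2 genes that rose at least 8-fold and ranked second among all rises. The other collagens that rose were low, at means of 2.11 to 7.39 TPM at 20 hr, namely dpy-14 (1.57), col-158 (1.34), col-43 (0.66) and dpy-17 (0.58, not called without 0 hr replicate 2, at 0.57). In the 24, 36 and 48 hr control libraries of the series, of which there is 1 each, col-95 was listed at 0.0913, 0 and 0 TPM, while col-13 stood at 1609, 1823 and 927 TPM and col-19 at 0, 0.784 and 209 TPM. Those libraries also held 0.629, 0.860 and 1888 TPM of the summed yolk genes and 1.54, 9.11 and 1242 TPM of the summed msp genes. The labels state no common starting event for these hours and those of 0 and 20 hr.

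Several other lists of epidermal and matrix genes had more falls than rises. Hedgehog-related genes, which code for secreted proteins of the apical matrix, fell in 10 of 12 tested cases (61 in the list) with a median of -1.63 at a median level of 13.4 TPM, where 47.1% of all tested genes of 5 to 20 TPM fell, led by grd-10 with 7.87, 4.12 and 2.71 TPM at 20 hr against 39.2, 45.3 and 44.1 TPM at 0 hr (-2.99). Astacin metalloproteases fell in 10 of 14 cases with a median of -1.08 at a median level of 2.87 TPM, near the 61.9% lower among all tested genes of 1 to 5 TPM, among them nas-9 (-2.43) and nas-7 (-1.48). Of the molting and apical matrix genes 23 of 34 fell and 3 rose, with a median of -0.72 (0.12 after quantile normalization) at a median level of 2.97 TPM, where tested genes between 1 and 5 TPM had a median of -0.74 and 61.9% fell, so this list was close to other genes of its level. Its summed level was 868, 834 and 806 TPM at 20 hr, against 682, 626 and 571 TPM at 0 hr, and so was higher at 20 hr. The cuticlin-like gene cut-4 (-2.24), the patched-related gene ptr-23 (-1.61) and the peroxidase gene mlt-7 (-1.54) had the largest falls of that list. Among factors that time molts and stages, lin-29 (-1.74), which drives the switch to adult epidermis, lin-14 (-0.99) and daf-12 (-0.86) fell, and lin-41 (1.27), lin-28 (0.62) and nhr-23 (0.50) rose. Without 20 hr replicate 3 the change of lin-14 was -0.63, and nhr-23 did not pass without that library (0.40), without 20 hr replicate 2 (0.44) or without 0 hr replicate 2 (0.52). The epidermal GATA factor gene elt-3 fell to 8.95, 7.11 and 5.76 TPM at 20 hr, against 30.6, 36.2 and 31.3 TPM at 0 hr (-2.04). Epidermal antimicrobial peptide genes fell in 20 of 23 cases with a median of -1.89. The only rise there, that of cnc-3 (0.71), was called when 20 hr replicate 3 or 0 hr replicate 1 was left out and not when any other library was. In the same list nlp-26 had 6.92, 6.32 and 7.31 TPM against 46.8, 67.0 and 74.7 TPM (-3.00), and fipr-21 had 39.5, 36.4 and 35.5 TPM against 252, 309 and 381 TPM (-3.03), both with groups far apart.

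Body wall muscle transcripts were lower as a group. Of 35 sarcomere genes 33 fell and none rose, with a median of -2.28 at a median level of 85.6 TPM, while 17.1% of all tested genes between 20 and 100 TPM fell. The gene dim-1 (WBGene00001000, chromosome X, 8050476 to 8058220, minus strand), for an immunoglobulin-repeat protein of body wall muscle, had 18.9, 20.4 and 25.4 TPM at 20 hr against 196, 276 and 346 TPM at 0 hr (-3.58, SE 0.21, limma adjusted p = 4.29e-06). Troponin I gene tni-3 (-3.39), troponin T gene mup-2 (-3.25) and the myosin light chain genes mlc-1 (-3.01) and mlc-3 (-2.73) followed. The main myosin heavy chain gene unc-54 had 9.52, 25.7 and 28.6 TPM, against 111, 116 and 223 TPM (-2.82), and myo-3 had 2.16, 5.07 and 4.67 TPM, against 15.3, 20.7 and 35.4 TPM (-2.30). In all 33 genes that fell, 0 hr replicate 1 was the 0 hr library with the lowest level. The list's 2 genes that did not pass were act-2 (0.28) and pat-3 (0.10), which are not particular to muscle, and act-2 rose at 0.68 without 20 hr replicate 1. In the list named for pharyngeal muscle and gland, 22 of 44 tested genes were lower and 12 higher. Most of the 44, and all 12 that rose, carry names of the glutamine- and asparagine-rich pqn family, which is defined by sequence rather than by tissue. The genes myo-1, myo-2 and ceh-22 of this list and all its abu genes did not reach the level filter. These counts are therefore no measure of the pharynx.

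Intestinal genes fell more often than they rose. Of 30 tested, 16 fell and 6 rose, with a median of -0.66 at a median level of 46.9 TPM, while 17.1% of all tested genes between 20 and 100 TPM fell and 60.0% rose. The microvillar actin gene act-5 had 288, 402 and 545 TPM at 20 hr, against 949, 1340 and 2118 TPM at 0 hr (-1.80), and the intermediate filament gene ifb-2 had 71.1, 62.6 and 57.9 TPM, against 139, 200 and 304 TPM (-1.66). The gut GATA factor gene elt-2 fell by 0.90 and the peptide transporter gene pept-1 by 1.42 on the log2 scale, whereas the esterase gene ges-1 did not pass (-0.09, limma adjusted p = 0.63). Yolk genes, which the same tissue expresses, had positive changes. Of the genes that rose, mtl-1, a metallothionein gene, had 3.48, 3.90 and 1.82 TPM against 0.173, 0.265 and 0.502 TPM (1.60), and fat-5, a fatty acid desaturase gene, had 27.1, 28.4 and 12.6 TPM against 7.33, 7.24 and 5.10 TPM (1.58).

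Lists of lipid and one-carbon metabolism had more falls than rises. The desaturase gene fat-7 fell to 6.81, 5.40 and 4.54 TPM at 20 hr, against 19.9, 27.0 and 20.8 TPM at 0 hr (-1.84), opposite to fat-5, and the elongase gene elo-6 fell by 1.70. Fatty acid synthesis and desaturase genes fell in 12 of 23 cases and rose in 3. Those of fatty acid oxidation fell in 15 of 33 and rose in 7 (4 without 20 hr replicate 2 and 2 without 0 hr replicate 2), with a median of -0.29, and the largest fall was that of acdh-8, an acyl-CoA dehydrogenase gene, with 0.0596, 0.0565 and 0 TPM against 8.75, 13.8 and 23.7 TPM (-3.88). One-carbon metabolism supplies methyl groups for phosphatidylcholine, among other products. There sams-1 (WBGene00008205, chromosome X, 11965962 to 11969784, plus strand), the S-adenosylmethionine synthetase gene, had 108, 107 and 87.1 TPM at 20 hr against 526, 616 and 564 TPM at 0 hr (-2.49, SE 0.12, limma adjusted p = 2.21e-06). The related sams-5 (-3.17), the methyltransferase gene pmt-1 (-1.68) and the transsulfuration genes cth-1 (-2.20) and cbs-1 (-1.72) fell as well, and 12 of the 23 genes of the list fell while 2 rose. Those rises were lost without 20 hr replicate 1 or 2 or 0 hr replicate 2. Median levels were 103 TPM for fatty acid synthesis, 43.6 TPM for fatty acid oxidation and 124 TPM for the one-carbon list. Of all tested genes between 20 and 100 TPM 17.1% fell and 60% rose, and of those over 100 TPM 16.2% fell and 58.2% rose.

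Detoxification enzymes were mostly lower. Glutathione S-transferase genes fell in 24 of 34 cases and rose in 3, with a median of -0.95, and UDP-glucuronosyltransferase genes fell in 32 of 50 cases and rose in 2, with a median of -0.89. Among tested genes between 5 and 20 TPM, where the medians of both families lie, 47.1% fell and the median was -0.36. After quantile normalization the family medians were -0.11 for glutathione S-transferases and -0.35 for UDP-glucuronosyltransferases. The stress-inducible gst-4 had 9.62, 8.73 and 9.37 TPM at 20 hr, against 31.0, 41.6 and 57.9 TPM at 0 hr (-2.08). The omega-class gsto-1 (-2.37), gst-10 (-2.17) and ugt-13 (-2.82) fell with groups that did not overlap. Cytochrome P450 genes fell in 19 of 37 cases and rose in 7, with a median of -0.41 that turned to 0.19 after quantile normalization, and 12 fell without replicate 2 of either group. The largest change among them was a rise, that of cyp-13A5, with 7.55, 3.71 and 18.5 TPM against 1.53, 1.80 and 1.50 TPM (1.82). Transthyretin-related genes, whose products are secreted, fell in 35 of 47 cases with a median of -0.94; 1 rose (3 without 0 hr replicate 1). The genes ttr-14 (-2.78) and ttr-10 (-2.76) led the falls. The median level of the transthyretin-related list was 16.1 TPM and that of the cytochrome P450 list 5.76 TPM, both between 5 and 20 TPM.

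**Figure D3:**
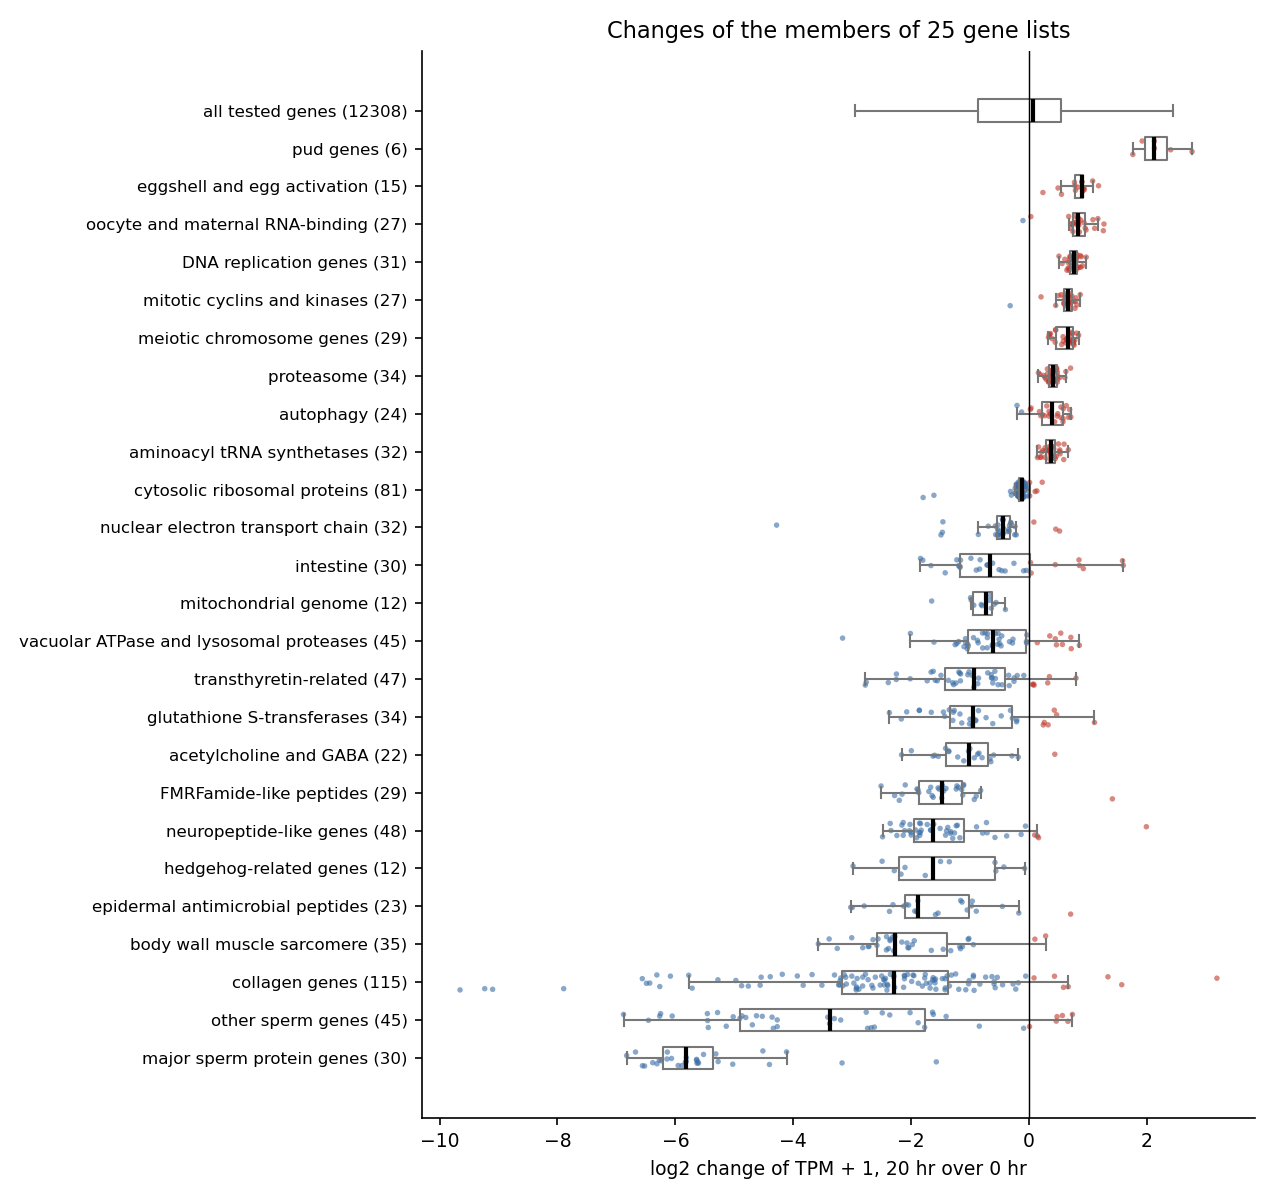
Log2 change of TPM + 1, 20 hr over 0 hr, for the tested members of 25 gene lists, with the number of members in parentheses. Each point is a gene, the box spans the middle of the distribution around its median (thick line), and the medians run between -5.81 for major sperm proteins and 2.13 for pud genes.

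Most neuropeptide genes fell. FMRFamide-like peptides modulate locomotion, feeding and sleep, and 28 of their 29 tested genes fell with a median of -1.48 at a median level of 5.25 TPM. Among all tested genes, 61.9% of those between 1 and 5 TPM and 47.1% of those between 5 and 20 TPM fell. The sum of FMRFamide-like TPM was 192, 176 and 141 at 20 hr, against 317, 379 and 407 at 0 hr. The gene flp-14 (WBGene00001457, chromosome III, 12910510 to 12914930, plus strand) had 4.47, 3.85 and 2.90 TPM at 20 hr, against 22.5, 27.0 and 28.1 TPM at 0 hr (-2.51, SE 0.17, limma adjusted p = 1.03e-05). Further large falls were those of flp-3 (-2.28), flp-11 (-2.20), a peptide gene of sleep, and flp-1 (-2.16). The only rise was that of flp-6, with 81.4, 72.0 and 55.6 TPM against 31.6, 24.4 and 20.7 TPM (1.41, SE 0.19). Genes of other neuropeptides fell in 41 of 48 tested cases and rose in 1, with a median of -1.62 at a median level of 5.34 TPM. After quantile normalization the medians of these lists were -0.84 and -0.96. The falls were led by nlp-10 (-2.49), nlp-20 (-2.36), nlp-18 (-2.34) and nlp-14 (-2.24). The rise was that of nlp-56, with 17.4, 17.1 and 16.9 TPM against 4.34, 4.11 and 2.48 TPM (1.99, SE 0.19). The amidation enzyme gene pgal-1 (-2.31), the convertase gene egl-3 (-1.95) and its chaperone gene sbt-1 (-1.84), which process neuropeptides, fell among 11 of 17 genes of that list, in which 1 rose (2 without 0 hr replicate 1). The median level of the processing list was 14.1 TPM, in the class of 5 to 20 TPM.

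Transmission genes had lower levels, near those where most tested genes fell. Acetylcholine and GABA genes fell in 19 of 22 cases and rose in 1, with a median of -1.02 at a median level of 2.19 TPM, beside 61.9% lower and a median of -0.74 over all tested genes of 1 to 5 TPM. The GABA synthesis gene unc-25 had 4.27, 3.34 and 2.95 TPM at 20 hr, against 11.0, 12.4 and 14.6 TPM at 0 hr (-1.60). The metabotropic GABA receptor gene gbb-2 (-2.16) and the GABA receptor channel gene unc-49 (-1.63) fell too. Of the neuron-wide genes, 18 of 28 fell and 4 rose, with a median of -0.58. Their median level was 5.32 TPM, where 47.1% of all tested genes of 5 to 20 TPM fell. The synaptic genes ric-4 (-1.77), cpx-1 (-1.45), unc-13 (-1.42), snt-1 (-1.36) and rab-3 (-1.03) fell, while snb-1 (0.46), a synaptobrevin gene also used outside neurons, rose with 253, 227 and 229 TPM against 186, 173 and 157 TPM. After quantile normalization the median of the neuron-wide list turned to 0.0948, and that of the acetylcholine and GABA list was -0.13.

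Transcripts of 2 genes of octopamine and tyramine synthesis were higher at 20 hr. The gene tbh-1, for tyramine beta-hydroxylase, had 358, 306 and 317 TPM at 20 hr, against 204, 156 and 121 TPM at 0 hr (1.05, SE 0.18, limma adjusted p = 0.00115), and tdc-1, for tyrosine decarboxylase, had 175, 158 and 143 TPM against 99.1, 94.5 and 68.0 TPM (0.87). Both enzymes are known from a few neurons and from the gonadal sheath (and tdc-1 from uterine cells). They were the 2 rises among 17 monoamine genes, of which 9 fell, with a median of -0.66 that turned to 0.35 after quantile normalization. The median level of the list was 1.60 TPM, where 61.9% of all tested genes of 1 to 5 TPM fell. Both tbh-1 and tdc-1 averaged over 100 TPM, where 58.2% of all tested genes rose, so they and the list's falls lie in different classes of level. In the list of learning and memory regulators 12 of 29 genes fell and 6 rose, at a median level of 27.6 TPM. Of all tested genes between 20 and 100 TPM, 17.1% fell and 60% rose. The insulin-like peptide gene ins-1 (-1.37), the kinase genes pkc-2 (-1.24) and kin-1 (-1.22) and the G protein gene gsa-1 (-0.96) fell, and the CREB gene crh-1 did not pass (0.24, limma adjusted p = 0.0718). Touch receptor tubulin genes mec-12 (-2.33) and mec-7 (-1.96) fell. Of 1404 chemoreceptor genes 12 reached the level filter, so that family was not measurable as a whole.

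Insulin-like peptides fell in 8 of 10 tested cases and none rose, with a median of -1.13 (-0.32 after quantile normalization). Their median level was 1.59 TPM, where 61.9% of all tested genes of 1 to 5 TPM fell. The gene daf-28, whose product promotes reproductive growth, had 0.477, 0.302 and 0.0956 TPM at 20 hr, against 5.56, 5.84 and 5.45 TPM at 0 hr (-2.37). The list of the downstream insulin pathway and its DAF-16 targets had 8 of 20 genes higher and 8 lower (5 lower without 20 hr replicate 1 or 2), near the 37.4% higher and 35.9% lower of all tested genes. The DAF-16 targets mtl-1 (1.60) and sod-3 (-1.64) changed in opposite directions, sod-3 with 1.13, 0.600 and 0.981 TPM against 5.16, 5.48 and 4.09 TPM.

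Transcripts of the respiratory chain and the ATP synthase were mostly lower, whether encoded in the mitochondrial or the nuclear genome. All 12 protein-coding genes of the mitochondrial genome fell, with a median of -0.74, and their sum was 11975, 10335 and 9636 TPM at 20 hr against 15461, 15051 and 17899 TPM at 0 hr. The most abundant, ctc-1, for subunit I of cytochrome c oxidase, had 3256, 2550 and 2443 TPM against 3639, 3389 and 3791 TPM (-0.40, limma adjusted p = 0.0156). That call was lost without 20 hr replicate 2 (-0.35) or 3 (-0.32) and at a common median (-0.20), and the largest fall was that of nduo-6 (-1.65). Nuclear genes of the electron transport chain fell in 26 of 32 cases and rose in 2, with a median of -0.45, and those of the ATP synthase fell in 8 of 12 and rose in 1 (2 without 20 hr replicate 1). Median levels were 779 TPM for the mitochondrial genome, 206 TPM for the nuclear chain genes and 440 TPM for the ATP synthase. Of all tested genes over 100 TPM, 16.2% fell and 58.2% rose. The gene atp-2, for the beta subunit of the ATP synthase, which the study targeted in its RNAi worms, did not pass here, with 1389, 1910 and 1872 TPM at 20 hr against 1814, 2074 and 2097 TPM at 0 hr (-0.22, limma adjusted p = 0.163). Of 18 genes of the mitochondrial unfolded protein response, at a median level of 116 TPM and so in the same class, 4 rose (2 without replicate 2 or 3 of 20 hr or replicate 2 of 0 hr) and 4 fell. Its transcription factor gene atfs-1 rose by 0.67, and the chaperone genes hsp-6 (0.25) and hsp-60 (0.12) did not pass, although both were called without 20 hr replicate 1, at 0.32 and 0.30. Without 0 hr replicate 3 hsp-6 passed at 0.30.

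In some sets of genes that encode forms of the same protein, picked after their values were seen, the copies parted. For subunit b of the ATP synthase, asb-2 (WBGene00000207, chromosome X, 4469743 to 4471476, plus strand) fell to 128, 149 and 143 TPM at 20 hr, against 378, 463 and 548 TPM at 0 hr (-1.71, SE 0.14), whereas asb-1 rose to 433, 396 and 375 TPM, against 329, 319 and 255 TPM (0.42, SE 0.12). For the core protein of complex III, ucr-2.1 (-1.47) and ucr-2.2 (-1.49) fell and ucr-2.3 (0.52) rose. In complex I, gas-1 (-1.46) fell and nduf-2.2 (0.45) rose. The glycolytic glyceraldehyde phosphate dehydrogenase genes gpd-2 (-1.94) and gpd-3 (-1.88) fell while gpd-1 (0.94) and gpd-4 (0.97) rose, each pair being near copies whose reads may be shared. The aldolase gene aldo-1 (-2.41) fell to 21.2, 34.0 and 27.9 TPM against 116, 156 and 183 TPM, and aldo-2 (-0.18) did not pass. Of the histone H3.3 genes, his-71 (-1.61) fell and his-72 (0.39) rose, with his-72 not called without 20 hr replicate 2 (0.37). Subunit g followed with asg-2 (-1.53) lower and asg-1 (-0.04) not called. In 5 of the 10 sets compared, copies were called in opposite directions (the call of nduf-2.2 was lost after quantile normalization, at 0.16), and in all 10 at least 1 copy fell. All sets were chosen after their values were seen, so these counts do not show how often copies part.

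**Figure D4:**
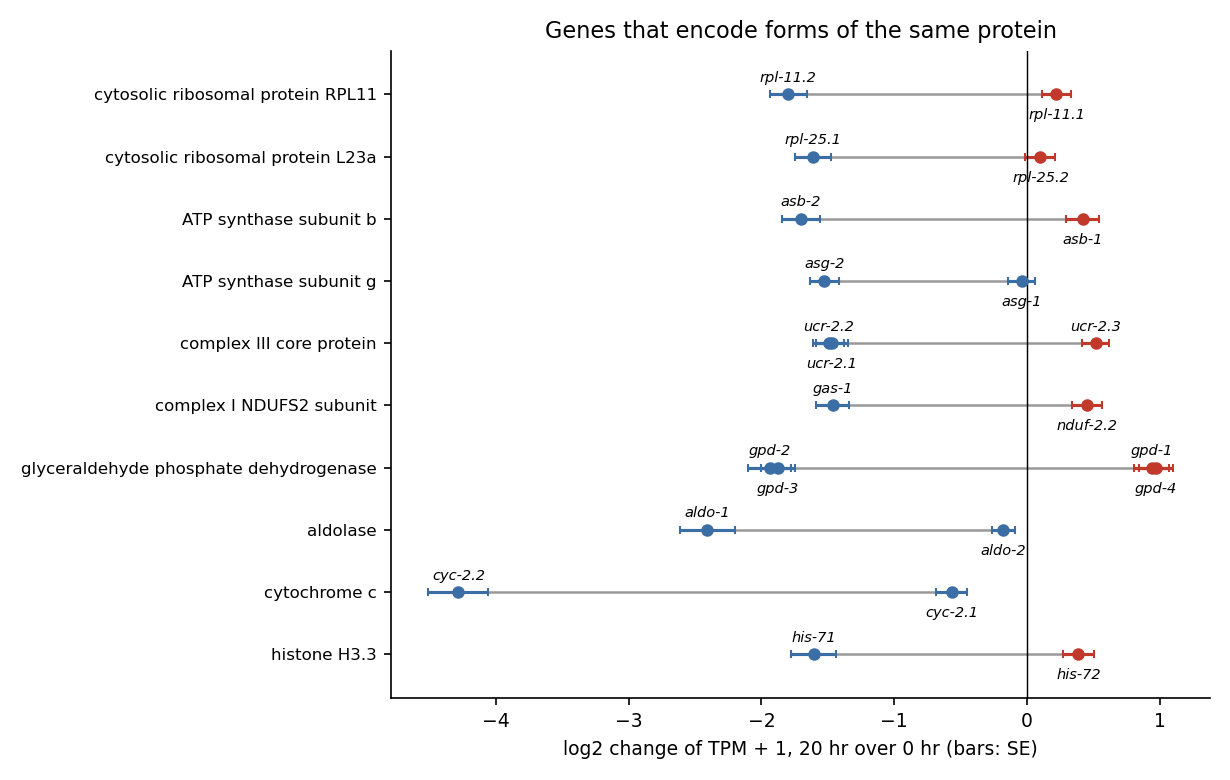
Log2 change of TPM + 1, 20 hr over 0 hr, of 23 genes in 10 sets that encode forms of the same protein, with bars for the SE of the fit over 3 libraries per group. A grey line joins the genes of a set, as between asb-2 at -1.71 and asb-1 at 0.42.

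Cytosolic ribosomal protein genes were the steadiest of the large lists. Of 81 tested, none rose and 2 fell, with a median of -0.13, which turned to 0.08 at a common median and to 0.09 after quantile normalization. Without 0 hr replicate 3, 16 fell, and without 20 hr replicate 1, 7 fell and 1 rose. The 2 falls were those of rpl-11.2, with 188, 193 and 190 TPM at 20 hr against 535, 699 and 785 TPM at 0 hr (-1.80), and of rpl-25.1, with 132, 145 and 139 TPM against 349, 453 and 491 TPM (-1.61). Their copies rpl-11.1 (0.22) and rpl-25.2 (0.10) were far more abundant and did not pass. Genes for aminoacyl-tRNA synthetases rose in 25 of 32 cases with a median of 0.37, as did 31 of 34 proteasome genes with a median of 0.41 and 15 of 24 autophagy genes with a median of 0.40, and none fell in these lists. Without 0 hr replicate 2 the rises were 12 of 32, 20 of 34 and 9 of 24, and without 20 hr replicates 1 or 2 or 0 hr replicate 3 those of the synthetases were 15, 16 and 16. These rises were about the size of the medians of 0.45 and 0.40 seen over all tested genes of 20 to 100 and over 100 TPM, of which 60% and 58.2% rose. Vacuolar ATPase and lysosomal protease genes fell in 31 of 45 cases and rose in 8, and asp-8, an aspartyl protease gene, had 5.91, 4.60 and 4.50 TPM against 28.6, 50.6 and 99.6 TPM (-3.16). The median level of that list was 234 TPM, where 16.2% of all tested genes over 100 TPM fell. Endoplasmic reticulum stress genes rose in 12 of 18 cases (7 without 0 hr replicate 2) and fell in 1 (none without a 20 hr library or 0 hr replicate 3). Their median level was 249 TPM, and of all tested genes over 100 TPM 58.2% rose and 16.2% fell. The BiP gene hsp-4 (0.68) was at 472, 429 and 442 TPM against 277, 245 and 322 TPM. Among heat shock genes 6 of 24 rose and 5 fell (3 without 20 hr replicate 1), and the small heat shock gene hsp-25 (-1.85) had the largest change. The heat shock list had a median level of 51.8 TPM, where 60% of all tested genes of 20 to 100 TPM rose and 17.1% fell.

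All 6 pud genes, named for proteins upregulated in mutants of the insulin receptor gene daf-2, rose with a median of 2.13 and without overlap between groups. Their median level was 91.6 TPM, where 60% of all tested genes of 20 to 100 TPM rose, with a median of 0.45. The gene pud-3 (WBGene00017501, chromosome V, 2324510 to 2326827, minus strand) had 29.5, 31.0 and 15.9 TPM at 20 hr, against 5.11, 2.58 and 1.41 TPM at 0 hr (2.76, SE 0.35, limma adjusted p = 0.000265). The near copies pud-1.1 (1.76) and pud-1.2 (2.40), and pud-2.1 and pud-2.2 (2.13 each), may share reads. Their summed level was 762, 741 and 474 TPM, against 187, 135 and 131 TPM. On the scale of log2(TPM + 1), of all tested genes C27A7.8 (WBGene00007758, chromosome V, 12153076 to 12154264, plus strand) rose most, with 15.4, 13.8 and 14.1 TPM against 1.11, 0.398 and 0.411 TPM (3.26, SE 0.20, limma adjusted p = 5.29e-06). The other large rises were those of F33H12.7 (2.91), F54E4.2 (2.77), T19C9.8 (2.76), C08F11.12 (2.21) and swt-6 (2.42), a gene for a sugar transporter of the SWEET family, with 28.1, 26.7 and 28.6 TPM against 5.22, 4.06 and 3.90 TPM.

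Immune genes did not move together. C-type lectin genes fell in 40 of 74 tested cases and rose in 17, with a median of -0.48 (-0.04 after quantile normalization). Their median level was 7.57 TPM. Of all tested genes between 5 and 20 TPM, 47.1% fell and 24.1% rose, so the list was close to other genes of its level. The rises were led by clec-190, with 27.2, 26.5 and 22.4 TPM at 20 hr against 4.11, 3.02 and 1.77 TPM at 0 hr (2.77, SE 0.22), and clec-222, with 36.9, 32.8 and 37.8 TPM against 9.97, 5.27 and 3.64 TPM (2.43). Of the falls, clec-73 (-3.27) was the largest, and it was listed at 0 in 2 libraries of 20 hr. Among genes of the p38 kinase pathway and its targets, T24B8.5 had 22.1, 25.8 and 13.0 TPM against 3.66, 2.66 and 2.19 TPM (2.44), while irg-5 fell by 1.90 on the log2 scale. Of 23 lysozyme and saposin-like genes 9 fell and 3 rose, with a median of -0.26, and lys-3 (1.07) and lys-7 (0.93) were among the rises. The p38 list had 3 genes higher and 5 lower of 13, with 1 higher without 20 hr replicate 3 or 0 hr replicate 2. Its median level of 9.82 TPM lay in the same class of 5 to 20 TPM. Genes of the intracellular pathogen response fell in 5 of 17 cases and rose in 3, and the sign of their median depended on the scaling (-0.11 as deposited, 0.09 at a common median).

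Position in the genome went with the direction of change. On the X chromosome 17.7% of 1720 tested genes rose and 52.9% fell, with a median of -0.52, against 40.6% and 33.1% of 10569 autosomal genes, with a median of 0.18. The autosomes were not alike. Rises and falls were 47.0% and 27.8% on chromosome I, 40.0% and 32.1% on II, 47.2% and 25.1% on III and 37.7% and 37.2% on IV, whereas on V falls were the larger share (42.4%, against 32.0% rises). The contrast depended on the level. Among genes over 100 TPM, 18.8% of X-linked and 60.5% of autosomal genes rose, and 63.4% and 13.4% fell. Between 1 and 5 TPM, 6.2% and 8.05% rose and 65.5% and 61.1% fell. Without the genes of the reproduction, embryo, cuticle and cell cycle lists the shares were 17.5% and 53.1% of 1672 X-linked genes and 40.6% and 32.6% of 10135 autosomal genes. Those lists hold few of the 1720 and 10569 genes, so leaving them out could hardly move the shares. Whether the contrast depends on germline or cuticle genes was not tested. It is known that most genes with germline expression in C. elegans lie on autosomes. Genes of a chromosome are not independent replicates, so these shares carry no test.

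**Figure D5:**
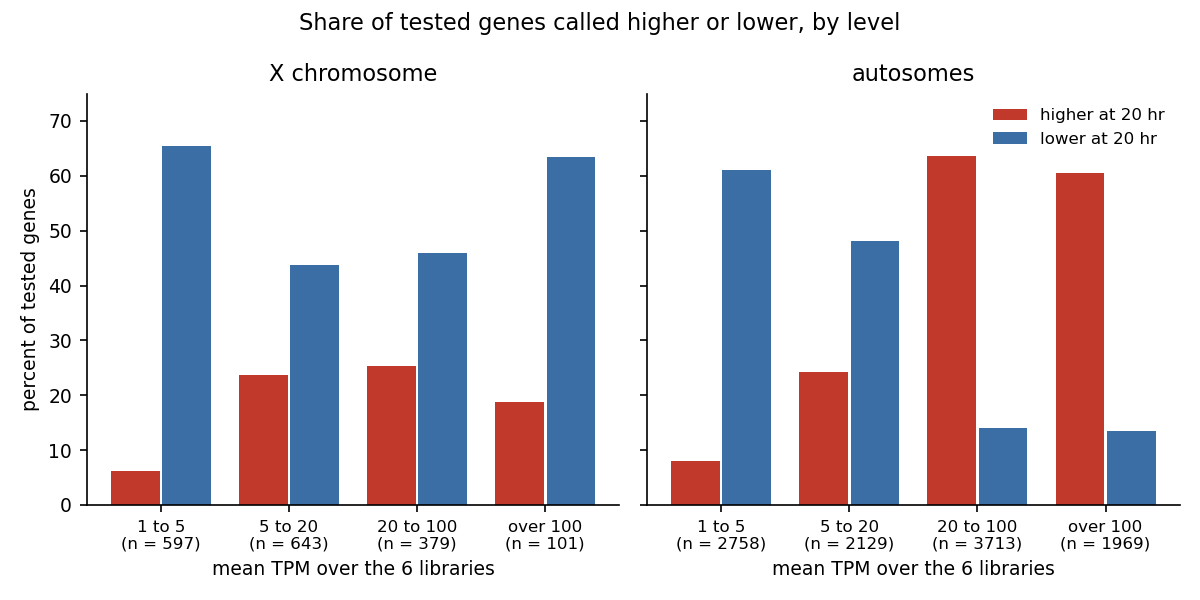
Percent of tested genes called higher (red) or lower (blue) at 20 hr by limma at an adjusted p of 0.05, on the X chromosome (left) and on autosomes (right), in 4 classes of mean TPM with the number of genes under each. Above 20 TPM most autosomal calls are rises, while X-linked genes have more falls than rises in every class.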

How the data were processed

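RNA of whole worms was sequenced. Per the labels' protocols, GENEzol was used for extraction and a SureSelect kit that keeps strand for the libraries. WBcel235 is the build of the coordinates printed here, and bcl2fastq 2.20, Cufflinks and TopHat are the tools named, per the submitters' processing notes. Not given in the sources used here are the annotation release, the strand setting and which program gave the TPM. What the authors deposited is TPM by gene and library, per the file headers, with each library summing to a fixed total and 0.0001 standing for no signal, which was set to 0. Depth is unknown, so no counting interval could be given.

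The 0 hr and 20 hr tables were joined by gene identifier (46904 in both). The 12308 genes that averaged 1 TPM or more in the 6 control libraries were tested on log2(TPM + 1) by limma 3.58.1 in R 4.3.3 with an intensity trend, 20 hr over 0 hr, and Benjamini-Hochberg adjustment at 0.05. A signed or plain value in parentheses after a gene name is this log2 change. The plan allowed for either counts or normalized values, and TPM are normalized values. The fit was tested on simulated data first. Python 3.11.15, numpy 2.4.6, pandas 2.3.3 and matplotlib 3.10.9 made the summaries and plots.

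The 67 gene lists were written by name and are described by counts and medians, with no set test. The comparison and the lists were chosen with earlier results of these data known, and the chemoreceptor and neuropeptide-like lists were corrected for wrong members after values were seen. Genes named are the 12 largest rises and falls, the 10 highest levels, the 4 largest changes of a list (8 in reproduction, embryo, cuticle and neuron lists) and any member of lists of at most 15 genes. Outside this rule, and chosen after their values were seen, are act-2, aldo-2, cdk-1, cnc-3, col-8, col-19, col-20, col-43, col-119, col-122, col-124, col-140, col-158, cpb-1, crh-1, dpy-14, dpy-17, flp-6, ges-1, gld-1, gpd-1, gpd-4, gsp-3, gsp-4, his-72, hsp-6, hsp-60, mex-3, mlc-3, myo-3, nduf-2.2, nlp-56, oma-1, oma-2, pat-3, pept-1, pie-1, pmt-1, pos-1, rpl-11.1, rpl-25.2, sid-1, snb-1, spe-5, spe-11, spe-39, spe-44, spe-48, ucr-2.3 and unc-54.

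Alternatives were a pseudocount of 0.1, no level filter, a stricter filter at 5 TPM, a common median, quantile normalization, a replicate block, no intensity trend, a minimum of 2-fold and leaving out each library. List counts without each library were added after the data were seen. Libraries of 24, 36 and 48 hr controls are quoted for context alone. The RNAi libraries were not used.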

Additional observations from a re-analysis of the deposited data

How the results depend on the processing

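Counts as printed were 4598 higher and 4422 lower. A mean of at least 5 TPM left 2335 lower, quantile normalization 2790, and a minimum of 2-fold 26 higher and 1157 lower. Each other setting stayed within 1.5 times of both counts, and without single libraries 3551 to 4740 were higher and 3933 to 4557 lower. The replicate block gave 4867 and 4354. Deviations of same-numbered libraries correlated at 0.091, 0.024 and 0.195, and replicate 1 of 20 hr correlated best with number 2 of 0 hr (0.25), so the numbers were not taken as pairs. The block ended the calls of vit-3, vit-4, mex-5 and ctc-1. Quantile normalization turned 795 called genes in sign, which the common median did for none. List medians turned in sign after quantile normalization for molting and apical matrix genes (0.1243), pharynx (0.0946), neuron-wide genes (0.0948), monoamines (0.3493), chemoreceptors (0.4221), the mitochondrial unfolded protein response (-0.1385), mitochondrial ribosomal (-0.1101) and cytosolic ribosomal proteins (0.0894), hypoxia (0.0302), cytochrome P450 (0.1897), nuclear hormone receptors (0.2983), the intracellular pathogen response (0.4280) and p38 targets (0.0805), and at a common median for cytosolic ribosomal proteins (0.0770), glycolysis (0.0454) and the pathogen response (0.0949). Genes not called turned too: aldo-2 (0.0277 and 0.0316) and ges-1 (0.1120 and 0.0494) in both, asg-1 (0.1653) at a common median, and atp-2 (0.0356), crh-1 (-0.0803) and pat-3 (-0.2375) after quantile normalization. Over single libraries left out, the change ran from -0.1166 to 0.0173 for asg-1, -0.2125 to 0.0473 for ges-1, -0.0088 to 0.3006 for hsp-60 and -0.0080 to 0.1838 for rpl-25.2. Quantile normalization also ended the calls of ctc-1, daf-12, ergo-1, gsa-1, lin-14, mex-5, nduf-2.2, nhr-23, nob-1 and rab-3, and without a filter those of all 3 called yolk genes were lost. The causes were not tested. Depth is unknown, so no limit of detection can be set for genes near 0 TPM.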

Other observations

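Several metabolic and regulatory lists had changes in both directions. Glycolysis, gluconeogenesis and TCA cycle genes fell in 20 of 49 cases and rose in 6, with a median of -0.16 that turned to 0.05 at a common median. Their median level was 201 TPM, and of all tested genes over 100 TPM 16.2% fell and 58.2% rose. Lipid-binding protein and lipase genes fell in 12 of 23 cases and rose in 6, with a median of -0.81. Metal-handling genes fell in 7 of 16 cases and rose in 2 (1 without 0 hr replicate 2). The rises included the metallothionein gene mtl-1 (1.60). Hypoxia and sulfide genes fell in 6 of 14 cases and none rose, at a median level of 15.6 TPM, where 47.1% of all tested genes of 5 to 20 TPM fell, and the largest fall was that of cysl-1, a sulfide-sensing enzyme-like gene, with 9.17, 8.96 and 9.11 TPM at 20 hr against 30.3, 38.6 and 43.8 TPM at 0 hr (-1.92). Superoxide dismutase, catalase and peroxiredoxin genes rose in 4 of 16 cases (1 without 0 hr replicate 2) and fell in 2. Median levels were 20.5 TPM for the lipid-binding and lipase list, 25.1 TPM for metal handling and 75.2 TPM for the superoxide list. Of all tested genes between 20 and 100 TPM, 17.1% fell and 60% rose. Nuclear hormone receptor genes fell in 67 of 156 cases (39 without 20 hr replicate 2) and rose in 16 (8 without 0 hr replicate 2), with a median of -0.42 that turned to 0.30 after quantile normalization, at a median level of 4.35 TPM, where 61.9% of all tested genes of 1 to 5 TPM fell. The largest of these falls was that of nhr-43, with 2.25, 1.72 and 3.75 TPM against 10.3, 8.77 and 14.5 TPM (-1.78).

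Of 71 mitochondrial ribosomal protein genes 8 rose and none fell, with a median of 0.19 (-0.11 after quantile normalization), and 3 to 17 rose when single libraries were left out, with the lowest count reached without 20 hr replicate 2 or 3 or 0 hr replicate 2 and the highest without 0 hr replicate 1. Their median level was 70.2 TPM, and of all tested genes between 20 and 100 TPM 60% rose and 17.1% fell. Glutamate transmission genes fell in 10 of 14 cases and rose in 1, at a median level of 3.25 TPM, where 61.9% of all tested genes of 1 to 5 TPM fell, and the glutamate transporter gene glt-1 had 17.2, 17.2 and 16.0 TPM at 20 hr, against 55.9, 67.0 and 53.6 TPM at 0 hr (-1.74). By type of gene, pseudogenes had more rises than protein-coding genes, with 48.3% of 296 higher and 18.2% lower, against 37.4% of 11855 higher and 36.5% lower. Whether reads of parent genes were counted in pseudogenes was not tested.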
